A study of Rattus norvegicus with 4 samples.

Results

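The microRNA hairpins miR-22 and miR-31a of the rat were followed in hepatocytes and LSECs, the sinusoidal endothelial cells of the liver. Their probes were found as the spots whose name was rno-miR-22 or rno-miR-31a followed by an arm, which gave 4 of the 761 rat miRNA probes on the array, the 5p and the 3p arm of each hairpin. The hairpins were selected on the spot medians themselves, because both arms of each read higher in hepatocytes than in LSECs. The contrast between the cell types is therefore a description of the choice for these 4 probes, and no test of it is given for them. Hepatocytes make up the liver parenchyma, and LSECs are the fenestrated cells that line its capillaries. Both came from untreated male Sprague-Dawley rats aged 10 weeks. There were 2 samples of each cell type, each on its own single-colour array, and the comparison asks which miRNAs differ between the cell types. Whether the samples of 1 cell type came from different animals is not given in the labels, so the spread between them may be technical. With 2 arrays per cell type, the precision of every value is limited.

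A miRNA is cut from a hairpin transcript as a duplex of a 5p and a 3p arm, and the arm that is loaded into an Argonaute protein represses messenger RNAs that pair with its seed, bases 2 to 8. miR-22 is made in many tissues. Its 3p arm represses the estrogen receptor transcript in human cells, and in mice the hairpin has been tied to cardiac growth and to lipid metabolism in the liver. The 5p arm of miR-31 represses the transcript of FIH, which restrains hypoxia-inducible factor, and that of the adhesion molecule E-selectin in human endothelial cells. The miR-31 gene is often lost or overactive in human tumours.

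The mature sequences are shown because the seed decides what an arm can pair with, and because 1 neighbouring miRNA resembles an arm of miR-31a. They are from RefSeq, build GRCr8, which held 685 of the 761 probe names and all 4 arms. Capitals mark the seed.
rno-miR-22-5p: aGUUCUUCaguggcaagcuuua
rno-miR-22-3p: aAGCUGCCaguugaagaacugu
rno-miR-31a-5p: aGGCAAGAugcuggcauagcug
rno-miR-31a-3p: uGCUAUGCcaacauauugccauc
rno-miR-31b: cUAUGCCAgcaucuugccu
The 4 arms had 4 different seeds, and 0 of the other mature rat miRNAs in the table shared one of them. Their content of G and C was 40.9% in miR-22-5p, 45.5% in miR-22-3p, 54.5% in miR-31a-5p and 43.5% in miR-31a-3p.

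The hairpins are shown next, because both arms of each were measured, with the mature arms in capitals.
Mir22: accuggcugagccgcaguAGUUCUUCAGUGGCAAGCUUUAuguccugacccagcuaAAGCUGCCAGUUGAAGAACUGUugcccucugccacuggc
Mir31: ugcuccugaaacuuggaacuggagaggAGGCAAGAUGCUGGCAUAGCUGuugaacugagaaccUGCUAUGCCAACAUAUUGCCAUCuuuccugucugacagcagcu
Mir22 lies at chr10:60805331-60805425 on the plus strand of GRCr8, between the protein-coding genes Wdr81 and Tlcd2, and overlaps no other gene in the RefSeq table used here. Mir31, the gene of miR-31a, lies at chr5:108714849-108714954 on the minus strand and overlaps the long non-coding RNA gene LOC130062807. Its nearest protein-coding neighbours are the interferon gene Ifne and C5h9orf85. The hairpin of miR-31b is annotated over the same bases on the opposite strand.

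The arrays separated by cell type as labelled. The hepatocyte miRNA miR-122-5p read 51468 and 59303 in hepatocytes, against 168.7 and 109.9 in LSECs, in the authors' scaled intensities. The endothelial miR-126a-3p read 46.5 and 81.3 in hepatocytes, against 67716 and 63106 in LSECs. The authors' scaled intensity is a linear brightness with the blank level removed and the median listed miRNA of each array set to 25. A probe counted as detected above its own array's blank mean plus 2 SD of the blank spots. Both were taken with the top and bottom 5% of blanks left out, which makes the SD smaller than over all blanks. By this limit 563 and 596 probes were detected in hepatocytes, against 680 and 660 in LSECs. The fit covered the 652 miRNAs that both arrays of hepatocytes, both of LSECs, or all 4 detected, and was made with limma on a quantile-normalized log2 scale with an offset of 50, as hepatocyte minus LSEC. Of these, 119 were higher in hepatocytes and 121 in LSECs at a Benjamini-Hochberg adjusted p under 0.05. These counts were 55 and 61 without LSEC array 1, and 57 and 63 without LSEC array 2. The split moved to 308 and 137 with 75th percentile scaling, 108 and 221 with median scaling, 111 and 196 in the authors' table, 27 and 150 without normalization, and 21 and 433 with scaling to the spike control spots.

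All 4 arms were detected on all 4 arrays, and in spot medians, authors' scaled intensities and normalized values both hepatocyte arrays stood above both LSEC arrays for each of them. All 4 were among the miRNAs past that threshold on the hepatocyte side, where 18.3% of the miRNAs tested stood (36.8% in either direction). Since this contrast chose them, nothing is read from that count or from the positions of the arms given below. Between hepatocytes and LSECs miR-31a differed far more than miR-22 in linear intensity: its arms in LSECs stood at 1.52% (5p) and 3.03% (3p) of their hepatocyte level, and those of miR-22 at 31.1% (5p) and 39.2% (3p). The 3.03% rests on LSEC signals near the blanks. On the normalized log2 scale with its offset, miR-31a-3p differed by 1.71, less than miR-22-5p (1.81) and miR-22-3p (2.23). Levels of different arms are not set against each other, because probes differ in brightness.

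The 3p arm of miR-22, the one usually loaded, had spot medians of 1251 and 2067 brightness units in hepatocytes, against 814.0 and 893.3 in LSECs. Its authors' scaled intensity was 2821 and 3085 in hepatocytes, against 1155 and 1159 in LSECs. Both hepatocyte arrays stood above both LSEC arrays, by a ratio of 2.55 between the means and of 2.43 to 2.67 between single arrays. On the normalized log2 scale the difference was 2.23 ± 0.04 (SE, 2 arrays per cell type), or 4.69-fold. Without normalization it was 0.92. Quantile normalization, which gives equal ranks equal values, put miR-22-3p at 11.21 on both hepatocyte arrays, so the hepatocyte arrays add no spread of their own to the error, only the spread that limma shares between miRNAs. Of the 652 miRNAs tested, the difference stood at position 15 from the hepatocyte end.

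The 5p arm of miR-22, its passenger arm in most tissues, had spot medians of 194.1 and 319.8 units in hepatocytes, against 139.1 and 136.0 in LSECs. Its authors' scaled intensity was 275.9 and 355.6 in hepatocytes, against 105.9 and 90.7 in LSECs. This arm varied more between the hepatocyte arrays than the 3p arm did, the second reading 1.29 times the first against 1.09 times for the 3p arm. The normalized log2 level was 8.48 ± 0.34 in hepatocytes and 6.67 ± 0.06 in LSECs (SD, n = 2 each). The difference was 1.81 ± 0.18 (SE), position 19 of 652. Without LSEC array 1 or without LSEC array 2 the fit no longer placed miR-22-5p past the threshold, at differences of 1.70 and 1.62, while the other arms remained past it.

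The 5p arm of miR-31a, its usually loaded arm, had spot medians of 396.7 and 639.3 units in hepatocytes, against 79.5 and 79.8 in LSECs. Its authors' scaled intensity was 763.5 and 854.6 in hepatocytes, against 13.3 and 11.3 in LSECs. The ratio of the means was 65.8, with 57.4 to 75.6 between single arrays. In LSECs the spots rose 8.59 and 8.04 units above the blank mean, against a trimmed blank SD of 1.15 and 1.24 units. Of the 1664 blank spots, 2 and 1 read as high. The arm was thus dim in LSECs but clear of nearly all blanks. On the normalized log2 scale, where the offset makes folds of dim spots smaller, the difference was 3.69 ± 0.05 (SE), or 12.9-fold, position 7 of 652.

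The 3p arm of miR-31a had spot medians of 139.8 and 208.4 units in hepatocytes, against 74.8 and 74.4 in LSECs. Its authors' scaled intensity was 145.2 and 181.5 in hepatocytes, against 6.1 and 3.8 in LSECs. In LSECs it was at the edge of detection: the spots rose 3.93 and 2.66 units above the blank mean. That is 3.41 and 2.14 trimmed blank SD, against the limit of 2, so the detection on LSEC array 2 rests on the trimming. Of the 1664 blank spots, 17 and 109 read as high. The ratio of 33.0 between the means, with 23.8 to 47.8 between single arrays, therefore rests on LSEC signals hardly apart from blanks. The normalized difference was 1.71 ± 0.04 (SE), position 22 of 652.

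**Figure D1:**
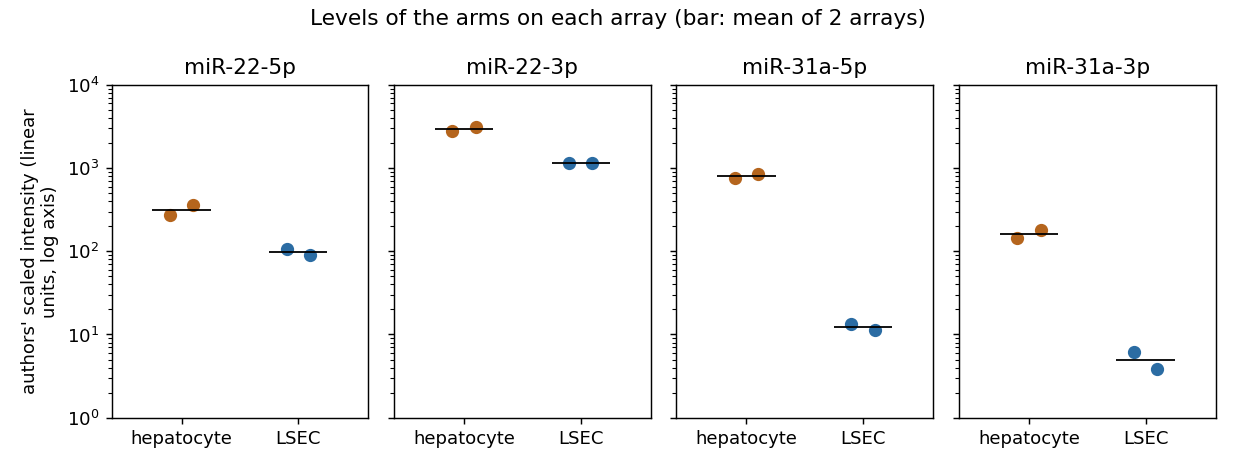
Authors' scaled intensity of each arm on each array, in linear units on a log axis, with hepatocyte arrays left and LSEC arrays right in each panel and the mean of 2 arrays as a bar. The arms of miR-22 stand 3.21 (5p) and 2.55 (3p) times higher in hepatocytes and those of miR-31a 65.8 (5p) and 33.0 (3p) times higher.

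How far miR-22 was higher in hepatocytes changed with the scaling between arrays. The platform's spike control spots carry a control signal apart from the miRNA probes; the amount added per sample is not given in the sources used here. Against these spots miR-22-3p had 64.7 and 64.6 units per 1000 units of spike signal in hepatocytes, against 59.8 and 66.6 in LSECs. The LSEC arrays lay on either side of the hepatocyte arrays, so on this scale the cell types overlapped. For miR-22-5p the values were 6.33 and 7.45 per 1000 in hepatocytes, against 5.49 and 5.21 in LSECs, without overlap. The values per 1000 units hold no offset. In the fit, where the offset is added after spike scaling, the log2 differences were 0.033 for miR-22-3p and 0.23 for miR-22-5p. That scaling moved the median of all 652 miRNAs to -0.271. The offset makes differences of dim spots smaller, so these brighter arms are not ranked against that median. Without normalization the difference of miR-22-5p was 0.88, close to that of the 3p arm, and with the authors' values, whose median lay at -0.276, the differences were 1.68 for miR-22-5p and 1.35 for miR-22-3p.

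miR-31a was higher in hepatocytes on the spike scale too. The 5p arm had 17.5 and 17.9 units per 1000 units of spike signal in hepatocytes, against 0.692 and 0.652 in LSECs. The 3p arm had 3.33 and 3.80 in hepatocytes, against 0.316 and 0.216 in LSECs. These values per 1000 units hold no offset, so the fitted differences are not the log2 of their ratios. In the fit, where the offset makes differences of dim spots smaller, spike scaling gave log2 differences of 2.41 for miR-31a-5p and 0.94 for miR-31a-3p. The spike signal itself, after removal of the blank mean, averaged 18100 and 30560 units for hepatocytes, against 12420 and 12330 units for LSECs. Which scaling is closer to RNA per cell was not tested.

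**Figure D2:**
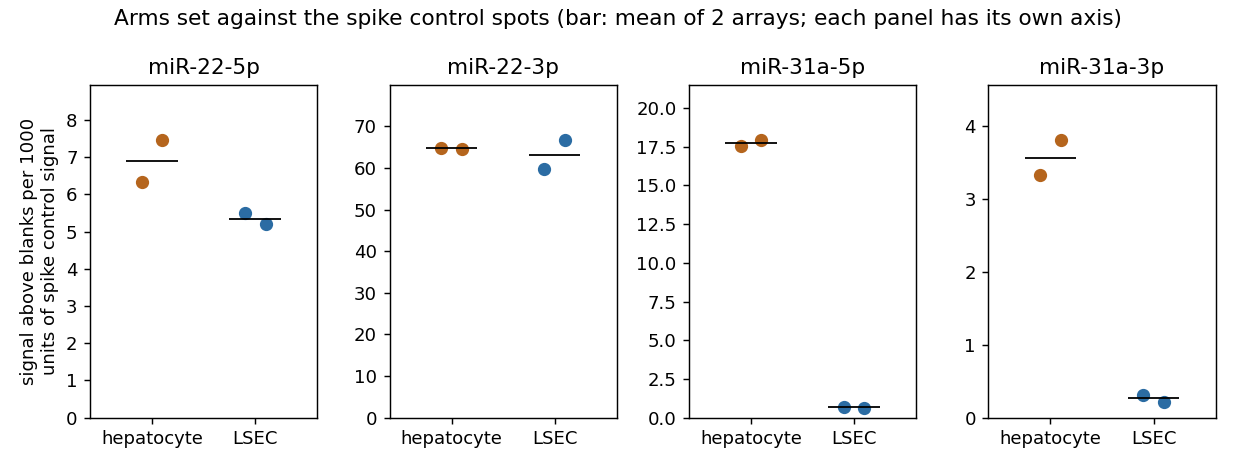
Signal above the blank mean of each arm per 1000 units of spike control signal, on each array, with a linear axis from 0 for each panel and the mean of 2 arrays as a bar. The cell types overlap for miR-22-3p and stand apart for the other arms.

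Subtracting the background column of the scanner files turned both usually loaded arms the other way, to -0.20 for miR-22-3p and -0.31 for miR-31a-5p. That column read 402.1 and 651.3 at the miR-31a-5p spots of the hepatocyte arrays, above the spot medians themselves, and 2107 at the miR-22-3p spot of hepatocyte array 2. The subtracted signal was therefore at the floor of 1 unit on those arrays. The other arms stayed on the hepatocyte side in that setting, at 1.58 for miR-22-5p and 1.08 for miR-31a-3p.

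**Figure D3:**
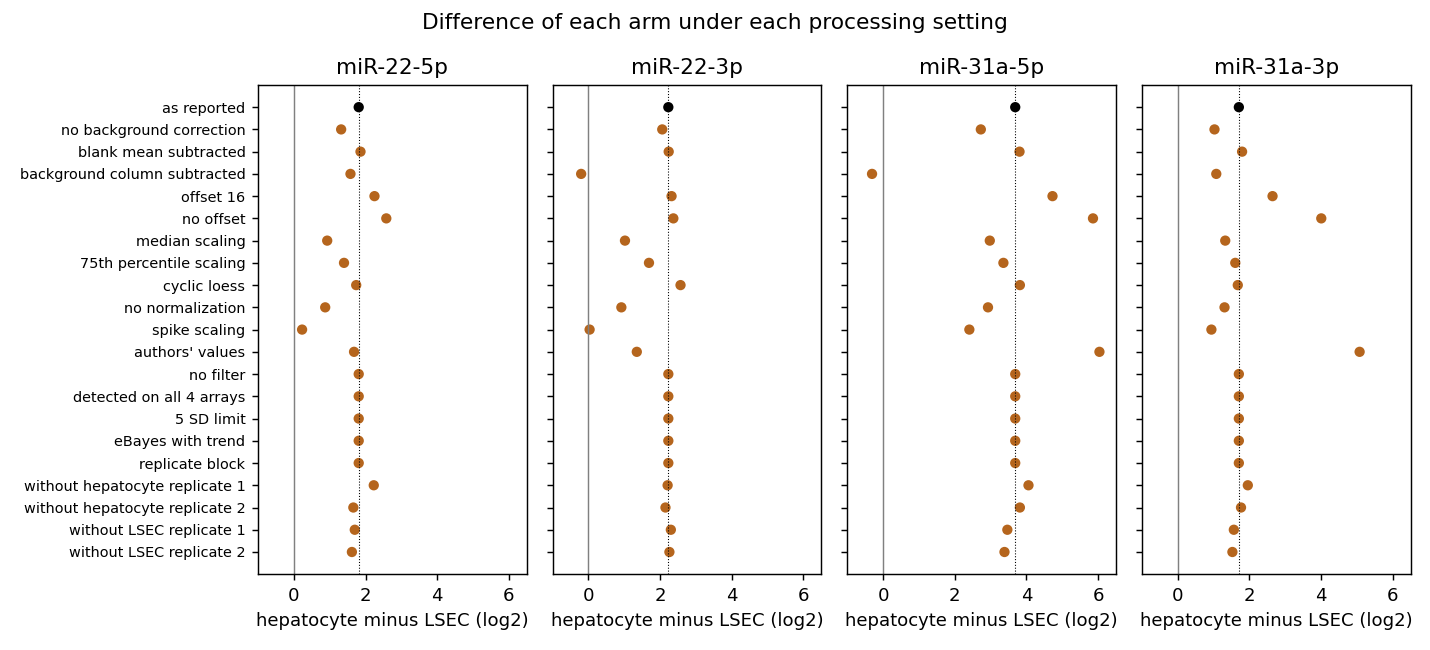
Hepatocyte minus LSEC difference of each arm in log2 units (horizontal) as reported and under 20 other settings (vertical), with a solid line at 0 and a dotted line at the reported value. The arms of miR-22 fall to 0.033 (3p) and 0.23 (5p) with spike scaling, and miR-22-3p and miR-31a-5p fall below 0 with the background column subtracted.

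The neighbouring miRNAs of both loci were not used in the choice, and neither passed the threshold as normalized here. miR-31b comes from the strand opposite to miR-31a, and its 19 bases are the exact complement of bases in miR-31a-5p. Read in its own direction it matches miR-31a-3p at 16 of 19 bases, with the substitutions A11G, A15C and A21U, counted from the 5′ end of miR-31a-3p (miR-31a-3p base first). It is the closest other mature sequence on the array to miR-31a-3p. The closest to each of the other arms shared 13 bases. On the hepatocyte arrays, where miR-31a-3p read 139.8 and 208.4 units, miR-31b read 81.0 and 88.8 units and was not detected on either, with 398 and 1399 of 1664 blank spots reading as high. On the LSEC arrays miR-31b was detected at 74.7 and 77.1 units, or 5.9 and 7.5 in authors' scaled intensity. There 20 and 6 of the 1664 blank spots read as high. In limma miR-31b differed by -0.12 ± 0.06 (SE, adjusted p = 0.193) and was not called. Its LSEC level was 1.002 times the hepatocyte detection bound, so no higher level in LSECs is read from it. Under spike scaling the limma difference was -0.18 (adjusted p = 0.0307), against a median of -0.271 over all miRNAs in that setting. The miR-31b probe thus read near the blanks on the arrays where the similar miR-31a-3p was bright.

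miR-6326 comes from a hairpin on the same strand as Mir22, with 142 bases between them, and was named here for that position. It read 10.9 and 25.2 in hepatocytes, against 21.2 and 18.8 in LSECs, in authors' scaled intensity, and the cell types overlapped. Its difference was 0.0076 ± 0.09 (SE) in limma (adjusted p = 0.963), and -0.27 under spike scaling (adjusted p = 0.00774). The spike value equals the median of -0.271 over all miRNAs in that setting, so it lay where the median miRNA lay.

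**Figure D4:**
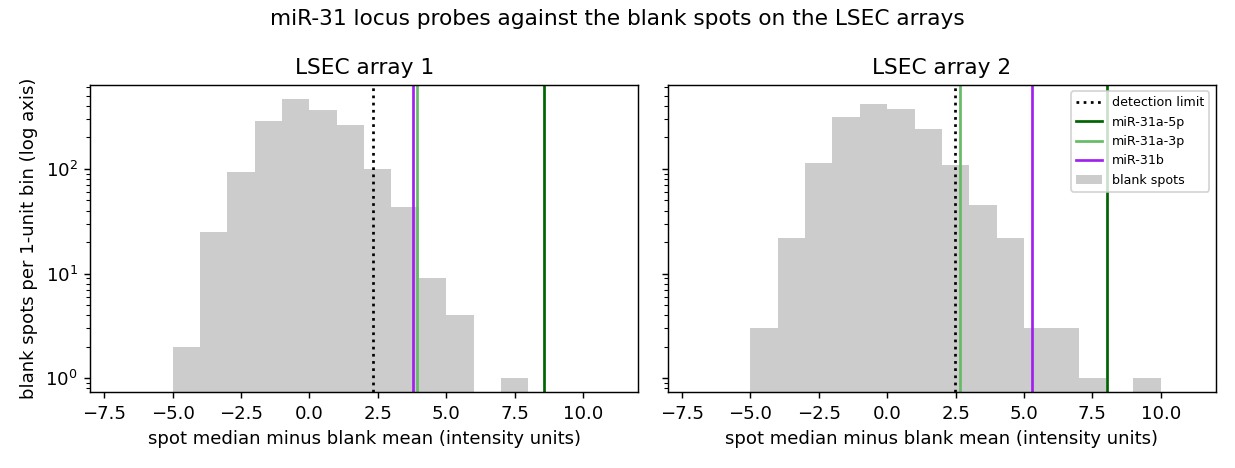
Number of blank spots per 1-unit bin of signal above the blank mean (log axis) on LSEC arrays 1 and 2, with lines for the detection limit and for the miR-31a-5p, miR-31a-3p and miR-31b spots. The miR-31a-3p and miR-31b spots lie within the upper tail of the blanks, and miR-31a-5p lies beyond nearly all of them.

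Of 213 hairpins with both arms tested, 63 had both arms above 0, the hepatocyte side. Past the threshold, 14 had both arms on the hepatocyte side and 13 on the LSEC side, 11 had arms called in opposite directions, 95 had 1 arm called and 80 had none. By the difference of the weaker arm, miR-22 stood at position 2 and miR-31a at position 3 of the 213, after miR-122, whose arms differed by 8.23 (5p) and 5.74 (3p). Both hairpins were chosen for having both arms higher in hepatocytes, so nothing is read from these positions. The hairpin just inside the pattern was miR-33, from a sterol regulator gene, with 0.84 (5p) and 0.22 (3p). Just outside stood miR-503, with 0.45 (5p) and an uncalled 0.29 (3p). With spike scaling these 4 arms lay between -0.60 and -0.064. In limma the calls of miR-33-3p and miR-503-5p ended without LSEC array 1 (adjusted p = 0.204 and 0.172), without LSEC array 2 (0.257 and 0.254) and without hepatocyte array 2 (0.0716 and 0.0734). The count of 14 was 59 with 75th percentile scaling and 4 with spike scaling, 4 without normalization and 0 with the background column subtracted. It was 7 without LSEC array 1 and 7 without LSEC array 2.

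The arms of miR-22 lay closer together than those of miR-31a in the values reported here. The 5p difference minus the 3p difference was -0.42 for miR-22 and 1.98 for miR-31a, against a median absolute value of 0.36 over the 213 hairpins. By absolute size they stood at positions 103 and 28. Neither sign held in every setting: with the background column subtracted the values were 1.78 for miR-22 and -1.38 for miR-31a. For miR-22 the value was also above 0 in other settings, at 0.33 with the authors' values, 0.21 without an offset, 0.20 with spike scaling and 0.022 without hepatocyte array 1. For miR-31a the value was 0.97 with the authors' values, which hold no offset, and it rests on the miR-31a-3p signals near the blanks in LSECs.

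**Figure D5:**
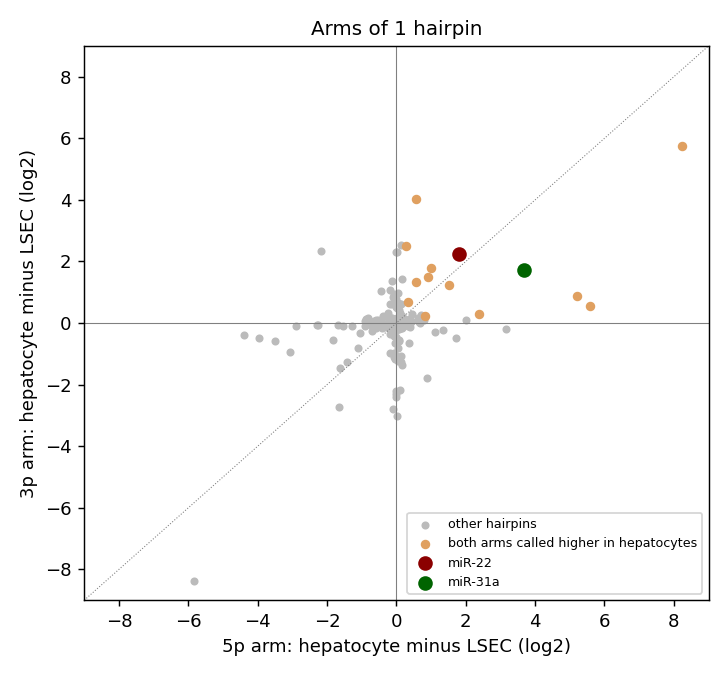
Hepatocyte minus LSEC difference of the 5p arm (horizontal, log2) against the 3p arm (vertical, log2) for 213 hairpins, with the 14 that had both arms called higher in hepatocytes coloured. miR-22 lies nearer to the dotted line of equal difference than miR-31a, which lies to the right of it, toward the 5p arm.

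The miRNAs most like each arm were those with the smallest Euclidean distance between normalized log2 values over the 4 arrays, each centred on its own mean, among 478 other miRNAs detected on all arrays. For miR-22-3p they were miR-125a-3p (distance 0.12), miR-204-3p (0.15) and miR-487b-3p (0.22). Under spike scaling these too lay near 0, at 0.10, 0.022 and 0.0045 in that order. For miR-22-5p they were miR-295-5p (0.24), miR-378a-3p (0.29) and miR-138-2-3p (0.30). The arm miR-31a-5p was most like miR-101b-3p (0.28), miR-148a-3p (0.36), which represses the low-density lipoprotein receptor, and miR-483-5p (0.53), from within Igf2. The arm miR-31a-3p was most like miR-378a-3p (0.093), miR-652-5p (0.11) and miR-378b (0.12). Under spike scaling these last lay on the LSEC side, at -0.27 for miR-378a-3p, -0.54 for miR-652-5p and -0.19 for miR-378b, against the median of -0.271 over all miRNAs in that setting. The offset makes differences of dim spots smaller, so these brighter miRNAs are not ranked against that median. In the authors' values, which hold no offset, they lay at 0.99, 0.76 and 1.08 in the same order, above the median of -0.276. The arm miR-31a-3p was at 0.94 under spike scaling and at 5.08 in the authors' values. With 4 arrays in 2 cell types this likeness mostly restates the size of the difference.

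Lists of other miRNAs with roles near those of miR-22 and miR-31 went both ways. Beside them, the fit over all 652 miRNAs placed 119 on the hepatocyte side and 121 on the LSEC side, with a median difference of 0. Under spike scaling these counts were 21 and 433, with a median of -0.271, so a list's counts in that setting stand against a shift common to most miRNAs. Of 13 miRNAs linked with energy and lipid metabolism, a field in which miR-22 is studied, 6 were higher in hepatocytes and 3 in LSECs. The median was -0.07. Those 6 were both arms of miR-378a, miR-378b, both arms of miR-33 and miR-96-5p, so they are not 6 separate hairpins. The highest was miR-378a-3p, from within the coactivator gene Ppargc1b, at 1.77 ± 0.06 (limma adjusted p = 0.000159). It was -0.27 under spike scaling, and 0.99 in the authors' values, where the median of all miRNAs was -0.276. Under spike scaling 0 of the list were higher in hepatocytes and 9 in LSECs, with a median of -0.68. Of 8 miRNAs linked to hypoxia, the pathway that miR-31 touches through FIH, 2 were higher in hepatocytes and 4 in LSECs, with a median of -0.23. The hepatocyte ones were both arms of miR-210, the main hypoxia-induced miRNA, with miR-210-3p at 0.68 ± 0.05 (limma adjusted p = 0.00116) but -0.21 under spike scaling. On the LSEC side miR-322-5p stood at -3.08 ± 0.14 (limma adjusted p = 0.000343). Under spike scaling 0 of the 8 were higher in hepatocytes and 8 in LSECs, with a median of -1.95. As normalized here, leaving out 1 array gave 2 in hepatocytes and 2 in LSECs without hepatocyte array 2, 1 and 2 without LSEC array 1, and 1 and 3 without LSEC array 2.

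Of 9 tested miRNAs tied to adhesion molecules and inflammation of endothelium, where miR-31 represses E-selectin in human cells, 1 was higher in hepatocytes and 6 in LSECs, with a median of -0.31. The leading one was miR-126a-3p, which represses the adhesion molecule VCAM, at -8.38 ± 0.14 (limma adjusted p = 2.26e-05). Under spike scaling the list's counts were 0 and 9, and without LSEC array 1 or LSEC array 2 they were 0 and 4. With the background column subtracted they were 0 and 3. Of 13 hepatocyte miRNAs, 12 were higher in hepatocytes and 0 in LSECs, with a median of 2.38. These counts were 9 and 3 with spike scaling, 8 and 1 without normalization and 3 and 0 with the background column subtracted.

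Markers of these and other cells went different ways between the cell types. The 4 hepatocyte markers had a summed signal, less the blank mean, of 25870 and 46510 units in hepatocytes, against 157.2 and 132.7 in LSECs. In authors' scaled intensity the LSEC level was 0.252% of the hepatocyte level for miR-122-5p, 0.865% for miR-192-5p and 0.667% for miR-194-5p. These lay below the 1.52% of miR-31a-5p and the 31.1 and 39.2% of the miR-22 arms. Other miRNAs of the hepatocyte list lay above both arms of miR-31a, with miR-148a-3p at 4.1% and miR-101b-3p at 5.0%. The 2 endothelial markers summed to 24.6 and 66.5 units in hepatocytes, against 49370 and 50620 in LSECs. All 6 leukocyte and Kupffer cell markers were higher in LSECs, summing to 48.9 and 64.3 units in hepatocytes, against 4229 and 4884 in LSECs. All 5 stellate and mesenchymal markers were higher in LSECs as well, at 46.9 and 87.1 units in hepatocytes, against 1613 and 1393 in LSECs. Over all 652 miRNAs tested, 18.6% were called on the LSEC side and 18.3% on the hepatocyte side. Under spike scaling 433 of the 652 were on the LSEC side. The marker lists share members with the lists above, so their counts are not separate results. The leukocyte marker miR-146a-5p and both endothelial markers are also on the adhesion list, and the hepatocyte markers are on the hepatocyte list. Likewise, miR-223-3p is on the metabolism list and the stellate marker miR-199a-5p on the hypoxia list. Of the 4 cholangiocyte and epithelial markers tested, 3 were higher in hepatocytes, and the 5 on the array summed to 60.7 and 120.2 units there against 30.0 and 38.0 in LSECs. The 3 erythroid markers summed to 63.1 and 80.8 units in hepatocytes, against 79.6 and 88.1 in LSECs, so the cell types overlapped. Of the 2 tested, miR-451-5p was higher in hepatocytes by 0.79 (limma adjusted p = 0.0242) and miR-486 was not called. The marker sums were not set against sums over blank spots, so a small sum does not show that a cell type was present. The part of other cells in the LSEC levels of miR-22 and miR-31a was not tested, and fewer cells of a type cannot be told apart from less RNA per cell in these bulk samples.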

How the data were processed

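Single-colour Toray 3D-Gene arrays of Cy5-labelled total RNA were used, per the labels' protocols. The scanner files deposited by the authors give the median intensity of each of 3200 spots at 635 nm, merged from scans at 3 gains per the file headers, with the background still in. The authors' processed intensity table states no scale; set against the scanner values it equalled spot median minus trimmed blank mean (top and bottom 5% of 1664 blanks left out), times 1 constant per array (coefficient of variation 0.0124 to 0.0137% over values above 100). Scanner marks touched 0 miRNA spots.

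Spot medians were corrected with normexp over all spots (offset 50), the 761 miRNA probes quantile-normalized, and hepatocyte minus LSEC fitted with limma 3.58.1 (lmFit, eBayes; R 4.3.3) on log2 values, with Benjamini-Hochberg over 652 miRNAs. Scale constants in the alternatives acted before the offset. The fit was tested on simulated data. Members, lists, alternatives and the naming rule (the arms, probes sharing a seed or stem, the 3 miRNAs most like each arm, hairpins at the edge of the pattern, label checks, and up to 3 leading called members of each list) were chosen with earlier results of these data known. miR-6326 and miR-210-3p were named outside this rule, after their values were seen. Genes and sequences are RefSeq, GRCr8. A further list is not reported here.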

Additional observations from a re-analysis of the deposited data

How the results depend on the processing

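As reported, 240 miRNAs differed, 119 higher in hepatocytes and 121 in LSECs. In total 329 differed with median scaling (108 higher in hepatocytes and 221 in LSECs), 445 with 75th percentile scaling (308 and 137), 454 with spike scaling (21 and 433), 177 without normalization (27 and 150), 307 in the authors' values (111 and 196) and 18 with the background column subtracted (9 and 9). Leaving out 1 array gave 116 to 231 in all, 55 to 134 higher in hepatocytes and 61 to 97 in LSECs, with totals of 116 without LSEC array 1 and 120 without LSEC array 2. Hairpins with both arms on the hepatocyte side numbered 7 to 18 without 1 array, 59 with the 75th percentile, 4 with spikes, 4 without normalization and 0 with the background column. The 75th percentile moved the median difference to 0.147. With the replicate number as a block, 200 miRNAs differed, and each arm kept its difference (1.81, 2.23, 3.69 and 1.71). Deviations of same-numbered samples correlated with r = 0.0318. With 2 samples per cell type this value cannot decide whether same-numbered samples were paired. No call of an arm changed under the block.

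Settings are given in the order miR-22-5p, miR-22-3p, miR-31a-5p, miR-31a-3p. The differences were 1.32, 2.06, 2.73 and 1.03 without background correction, 1.86, 2.24, 3.81 and 1.80 with the blank mean subtracted, 1.58, -0.203, -0.306 and 1.08 with the background column subtracted, 2.25, 2.32, 4.73 and 2.65 with an offset of 16, and 2.58, 2.37, 5.86 and 4.01 with no offset. They were 0.931, 1.02, 2.98 and 1.33 with median scaling, 1.40, 1.69, 3.36 and 1.61 with the 75th percentile, 1.74, 2.57, 3.82 and 1.68 with cyclic loess, 0.875, 0.919, 2.93 and 1.31 without normalization, 0.23, 0.033, 2.41 and 0.944 with spikes, and 1.68, 1.35, 6.04 and 5.08 in the authors' values. Leaving out 1 array gave 1.62 to 2.23, 2.15 to 2.30, 3.39 to 4.06 and 1.53 to 1.96. Of the 20 settings, 20 kept miR-22-5p and miR-31a-3p above 0 and 19 each kept miR-22-3p and miR-31a-5p there. The larger folds of miR-31a without an offset follow from dim LSEC spots, which the offset lifts. By the threshold of the fit, 0 of the 4 arms were called with the background column subtracted, and miR-22-3p was not called with spikes. The other causes were not tested.

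The 5p minus 3p difference (miR-22, then miR-31a) was -0.735 and 1.70 without background correction, -0.38 and 2 with the blank mean, 1.78 and -1.38 with the background column, -0.0765 and 2.08 with an offset of 16, 0.208 and 1.85 with none, -0.0859 and 1.65 with median scaling, -0.283 and 1.75 with the 75th percentile, -0.832 and 2.15 with cyclic loess, -0.0441 and 1.62 without normalization, 0.197 and 1.47 with spikes, and 0.326 and 0.967 in the authors' values. Without 1 array it was -0.636 to 0.0218 and 1.86 to 2.09.

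Other miRNAs named changed sign as follows. With the background column subtracted, miR-6326 was at -0.0888, miR-122-3p at -0.279, miR-378a-3p at -0.421, miR-322-3p at 0.372 and miR-503-3p at -0.332. With median scaling, miR-6326 was at -0.0121 and miR-503-5p at -0.0508; with the 75th percentile miR-31b was at 0.0478. Without normalization, miR-6326 was at -0.0144, miR-503-5p at -0.0805 and miR-503-3p at -0.0201. With spikes, miR-6326 was at -0.271, miR-378a-3p at -0.267, miR-652-5p at -0.54, miR-378b at -0.187, miR-378a-5p at -0.0491, miR-210-3p at -0.208, miR-33-5p at -0.0643, miR-33-3p at -0.211, miR-503-5p at -0.597 and miR-503-3p at -0.382. In the authors' values miR-6326 was at -0.269. For miR-6326 the value was -0.0349 with no offset, -0.000455 with cyclic loess and -0.122 without hepatocyte array 2.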
